A study of Mus musculus with 2 samples.

Results

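Cholesterol and fatty acid synthesis genes were compared between mouse cells labelled lymphoma that were grown together with endothelial cells and cells of the same label grown in medium with serum. Each of the 2 conditions had 1 array. The members were taken as the probe sets that carry exactly 1 of 37 named gene symbols, and the probe set whose mean over the 2 arrays was highest stood for its gene. A probe set is the group of short probes on the array that reads 1 transcript, or several transcripts that share sequence. This gave 35 genes of 18193 genes with a probe set, in 83 probe sets. For 13 of the 35 the name of the chosen probe set marks shared sequence. No probe set of 1 symbol was listed for Acat2, the cytosolic thiolase at the head of the sterol pathway, or for Acsl1, an acyl-CoA synthetase. The lymphoma line, the mouse strain, the source of the endothelial cells, the time of culture and any separation of the cell types before RNA was taken were not given by the labels, nor was the medium of the co-culture. With bulk RNA, fewer cells of a type and less RNA per cell cannot be told apart.

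Sterols and fatty acids are both built from cytosolic acetyl-CoA. The sterol arm runs through mevalonate, isoprenoid diphosphates, squalene and lanosterol to cholesterol, and the fatty acid arm runs through malonyl-CoA to palmitate, which elongases and desaturases then modify. Many of these enzymes are targets of SREBP transcription factors, which are held in the endoplasmic reticulum when sterols are plentiful and are released, escorted by SCAP, when sterols run low. Dividing cells draw on both arms to build membranes.

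The start regions of 4 members are shown, since SREBPs and their partner NF-Y are known to act at the promoters of many genes of this pathway. Mvd and Acacb are the members with the largest differences between the arrays, Hmgcs1 is level by its chosen probe set, though not by all of its others, and Srebf2 encodes the sterol SREBP itself. Each window holds 250 bases before and 50 bases after the gene's start, from RefSeq, build GRCm38.p6, read 5′ to 3′ on the gene's strand. Capitals mark TCACNCCAC, a sterol response element core, and CCAAT, the letters that NF-Y binds, on either strand, so that CCAAT on the other strand reads as ATTGG. No base is shared between matches in these windows. The window of Mvd is at chr8:122443373-122443672 on the minus strand, that of Acacb at chr5:114165268-114165567, that of Hmgcs1 at chr13:119690101-119690400 and that of Srebf2 at chr15:82147019-82147318, all 3 on the plus strand.
Mvd: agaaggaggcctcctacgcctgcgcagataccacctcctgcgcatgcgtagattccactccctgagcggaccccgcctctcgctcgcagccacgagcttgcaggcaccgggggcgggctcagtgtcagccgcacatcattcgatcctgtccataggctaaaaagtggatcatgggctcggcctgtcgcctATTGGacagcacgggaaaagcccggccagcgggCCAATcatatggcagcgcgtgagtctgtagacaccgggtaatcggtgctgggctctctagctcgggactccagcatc
Acacb: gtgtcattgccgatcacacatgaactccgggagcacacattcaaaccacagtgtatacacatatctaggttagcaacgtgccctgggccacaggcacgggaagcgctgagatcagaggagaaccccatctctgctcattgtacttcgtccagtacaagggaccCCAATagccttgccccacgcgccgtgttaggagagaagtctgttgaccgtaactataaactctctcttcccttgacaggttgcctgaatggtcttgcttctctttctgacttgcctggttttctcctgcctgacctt
Hmgcs1: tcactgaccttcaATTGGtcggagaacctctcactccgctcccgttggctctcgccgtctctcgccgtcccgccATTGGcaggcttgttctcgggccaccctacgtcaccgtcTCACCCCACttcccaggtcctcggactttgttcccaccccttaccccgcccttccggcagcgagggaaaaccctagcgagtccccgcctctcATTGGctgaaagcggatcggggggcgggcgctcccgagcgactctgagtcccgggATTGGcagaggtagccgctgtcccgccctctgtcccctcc
Srebf2: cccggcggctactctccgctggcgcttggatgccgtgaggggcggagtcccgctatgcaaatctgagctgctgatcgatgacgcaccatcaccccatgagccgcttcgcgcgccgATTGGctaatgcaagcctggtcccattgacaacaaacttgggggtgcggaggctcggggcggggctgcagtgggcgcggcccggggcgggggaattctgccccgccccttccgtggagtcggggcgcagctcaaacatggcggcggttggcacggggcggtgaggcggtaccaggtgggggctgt

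The Mvd window held 2 CCAAT matches, at 60 bases and 27 bases before the start, and the windows of Acacb and Srebf2 held 1 each, at 87 and 135 bases before it. The Hmgcs1 window held 4 CCAAT matches and a TCACNCCAC match 137 bases before the start. Of the 35 genes with a value, 29 had a window, none being listed for Fdps, Fdft1, Sqle, Scd1, Scd2 and Fads1, and 24 of these held CCAAT in at least 1 window, while 1 held TCACNCCAC. Over all 27025 genes with a window, 41.1% held CCAAT and 1.44% held TCACNCCAC. Genes with CCAAT lay on both sides: Nsdhl had 4 matches, with a lower intensity in co-culture by its single probe set, and Idi1 had 2, with a higher intensity by both of its probe sets. A match is a description of the letters and not a binding site.

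Both arrays gave values with the same trimmed mean, 500.003 in linear intensity units, and medians of 50.7 on the co-culture array and 36.9 on the serum array. Values below the pooled median of all values, 44.3, were set to it as a floor. A gene with a value above the floor on at least 1 array was called measured, which held for 11542 genes. Beta-actin probe sets at the 3′ end of the transcript were brighter than those at the 5′ end, which shows how intact the RNA is. The ratio was 2.05 in co-culture and 3.56 in serum. It was 1.88 in co-culture and 2.54 in serum for Gapdh, and 5.03 and 13.2 for the transferrin receptor. The part of RNA quality in the differences below was not tested. The label lymphoma was not matched by its markers: of 9 leukocyte and B cell markers with a probe set, only Cd53 was measured (64.3 in co-culture and 139 in serum), with summed intensities of 159 and 241, while both arrays left Cd79a, Cd79b, Ptprc and Pax5 under the floor. Of 10 endothelial markers, only Egfl7 was measured (532 in co-culture and 473 in serum), and Pecam1, Cdh5 and Kdr were below the floor on both. The summed intensities of all 10 were 759 in co-culture and 624 in serum, most of it from Egfl7. Of 6 fibroblast markers 4 were measured, none brighter than 81.0 in co-culture or 77.4 in serum, with summed intensities of 353 and 261. The part of these marker sums in the differences was not tested. The samples are therefore called by their labels only.

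Most synthesis genes lay within 2-fold between the arrays. All 35 were measured, the dimmest value on either array being 263, so the floor changed the difference of no chosen probe set. The log2 difference is co-culture minus serum, and a gene was called when this was 1 or more in either direction, that is 2-fold. On this limit 0 members were higher and 2 were lower in co-culture, Mvd of the sterol arm and Acacb of the fatty acid arm, and 33 lay within 2-fold. Over all measured genes 4.6% were called higher and 10.1% lower, 14.7% in either direction, against 5.71% of the members. The members are bright, and of the 7530 genes with an intensity of 200 or more on both arrays 2.3% were called higher and 6.65% lower, 8.95% in either direction. A smaller difference, under 0.5 on the log2 scale, was found for 25 of the 35 members (71.4%) and for 66.4% of those bright genes. With 1 array per condition no difference has a test, and no p-value is given. The error used here is the pooled SD of log2 differences between probe sets of 1 gene, which was 0.41 over 2892 genes with probe sets at 200 or more on both arrays and 0.25 over the 17 members of that kind. With dimmer measured probe sets included, this SD was larger, 0.60 over 5478 genes and 0.53 over 23 members. It covers only what differs between probe sets of 1 gene on the same 2 arrays. Error that these probe sets share, as from labelling or hybridisation of a whole array, is not covered, nor is the spread between cultures.

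**Figure D1:**
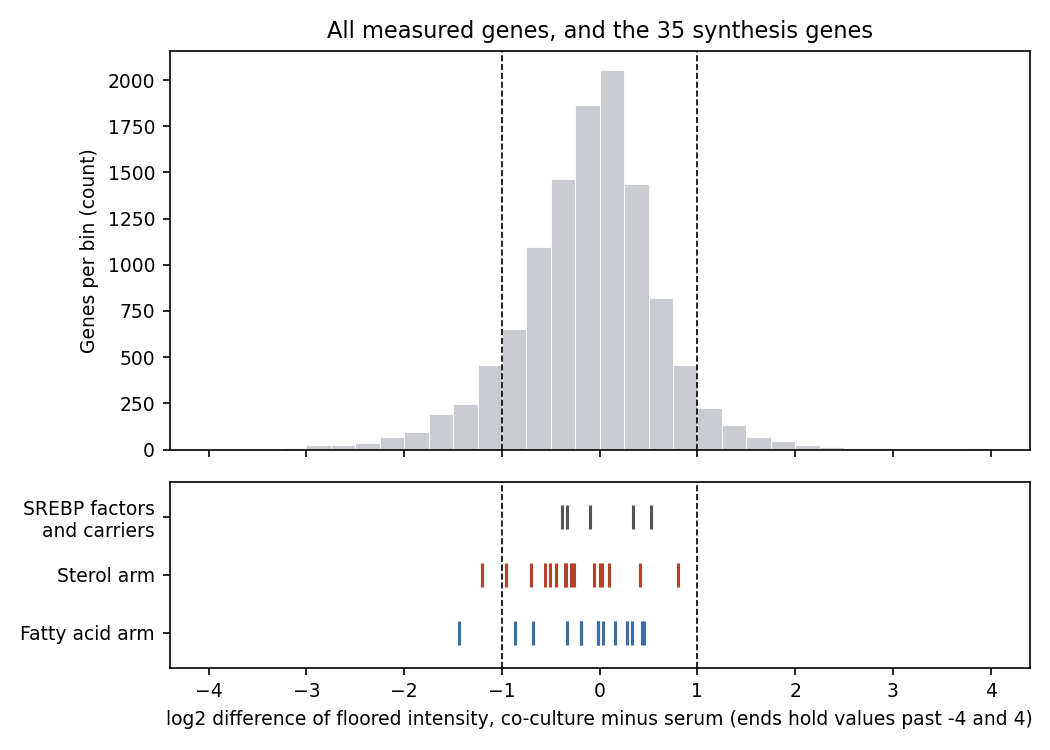
Upper panel: number of measured genes per bin of log2 difference of floored intensity, co-culture minus serum, for all 11542 measured genes. Lower panel: a tick for each of the 35 synthesis genes on the same axis, by role, with dashed lines at 2-fold. The ticks lie between -1.44 and 0.80, and 2 of them lie past the lower line.

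The factors that control the pathway lay within 2-fold, with the sterol and the fatty acid SREBP on opposite sides of 0. Srebf2, the transcription factor that drives the sterol genes, had an intensity of 2824 in co-culture and 1956 in serum. Its log2 difference was 0.53, and 0.98 by its other probe set (2037 in co-culture and 1029 in serum), so both of its probe sets were brighter in co-culture. Srebf1, whose main targets are the fatty acid genes, had 1034 in co-culture and 1348 in serum, a log2 difference of -0.38 by its single probe set. The array does not separate the transcripts of Srebf1, and intensity does not show how much of either protein is cleaved to its active form.

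Insig1, which holds SCAP in the endoplasmic reticulum and is itself an SREBP target, had 10199 in co-culture and 8080 in serum, a log2 difference of 0.34. Insig2, its relative with the same retaining role, had 472 in co-culture and 596 in serum. Its 3 probe sets disagreed, with log2 differences of -0.34, -0.57 and 0.19. Scap, the escort of the SREBPs, was almost level at 1596 in co-culture and 1706 in serum. Of the 8 measured probe sets of these 5 genes, 4 were brighter and 4 dimmer in co-culture, and the median log2 difference of the 5 genes was -0.10, beside -0.06 over all measured genes.

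The sterol arm had a median log2 difference of -0.32 over its 16 measured enzymes, 1 of them called lower and 0 higher. Of the 16, 11 had a value below 0, and over all measured genes 54.1% did. Over all 32 measured probe sets of the arm the median was -0.0035, with 16 above 0 and 16 below.

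Hmgcs1, which condenses acetyl-CoA units into HMG-CoA, was level by its chosen probe set, at 10886 in co-culture and 10853 in serum. Its 4 other measured probe sets, all dimmer, gave log2 differences of 0.08, 0.15, 0.75 and 0.93, larger the dimmer the probe set. Scd1 and Idi1, by contrast, had the larger value by the brighter of their probe sets. Whether the brightest probe sets read a difference as smaller was not tested. Mvk, the kinase that adds the first phosphate to mevalonate, had 288 in co-culture and 562 in serum, 1.95-fold lower in co-culture. Another, dimmer probe set of Mvk went the other way (167 in co-culture and 139 in serum, 0.27 on the log2 scale), so the gene has no settled direction. Pmvk, which adds the next phosphate, had 1952 in co-culture and 2471 in serum, a log2 difference of -0.34.

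Mvd, the decarboxylase that turns the product of Pmvk into isopentenyl diphosphate, was the sterol enzyme with the largest difference. Its intensity was 476 in co-culture and 1094 in serum, 2.30-fold lower in co-culture, a log2 difference of -1.20. Its other probe set, with 149 in co-culture and 345 in serum, gave -1.21. The 2 values of Mvd thus lay closer together than the pooled SD between probe sets of 1 gene.

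Idi1 and Fdps catalyse the next steps, and all 3 of their measured probe sets were brighter in co-culture. Idi1, which converts isopentenyl diphosphate to its isomer, had 8307 in co-culture and 6230 in serum, a log2 difference of 0.42, with 0.31 by its other probe set. Fdps, which joins these units to farnesyl diphosphate, the branch point to sterols and to prenylated proteins, had 2870 in co-culture and 1649 in serum. This was 1.74-fold higher, the highest value of any member at 0.80 on the log2 scale, and within 2-fold. The second probe set of Fdps was below the floor on both arrays, so 1 probe set carries the value.

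The enzymes that commit farnesyl diphosphate to sterols were all dimmer in co-culture, each within 2-fold. Fdft1, squalene synthase, had 2780 in co-culture and 4520 in serum, a log2 difference of -0.70, with -0.48 by its other measured probe set. Sqle, the oxygen-dependent squalene epoxidase, had 3044 in co-culture and 4162 in serum, a difference of -0.45. Lss, which closes the rings to lanosterol, had 2022 in co-culture and 2869 in serum, a difference of -0.50, with -0.45 and -0.39 by its other probe sets. All 6 measured probe sets of these 3 genes lay below 0, between -0.70 and -0.39 on the log2 scale, and 0 of them reached 2-fold.

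The enzymes between lanosterol and cholesterol lay within 2-fold. Cyp51, the lanosterol demethylase, had 7623 in co-culture and 7142 in serum, a log2 difference of 0.09, with 0.49 and 0.63 by dimmer probe sets. Tm7sf2, a sterol reductase, had 263 in co-culture and 322 in serum, and Sc5d, a sterol desaturase, had 1260 and 1238. Nsdhl, which acts in the removal of the methyl groups of lanosterol, had 1308 in co-culture and 1926 in serum, a difference of -0.56 by its single probe set.

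Hsd17b7, which works in the same demethylation, had 1178 in co-culture and 1413 in serum, a difference of -0.26. Its 2 other measured probe sets gave 0.33 and 0.64, on the other side of 0. Ebp, the isomerase that shifts the ring double bond, had 1261 in co-culture and 1610 in serum, and Dhcr7, the reductase of the last step, had 4186 and 4353. None of the 7 genes after lanosterol reached 2-fold, and 7 of their 13 measured probe sets were brighter in co-culture and 6 dimmer.

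**Figure D2:**
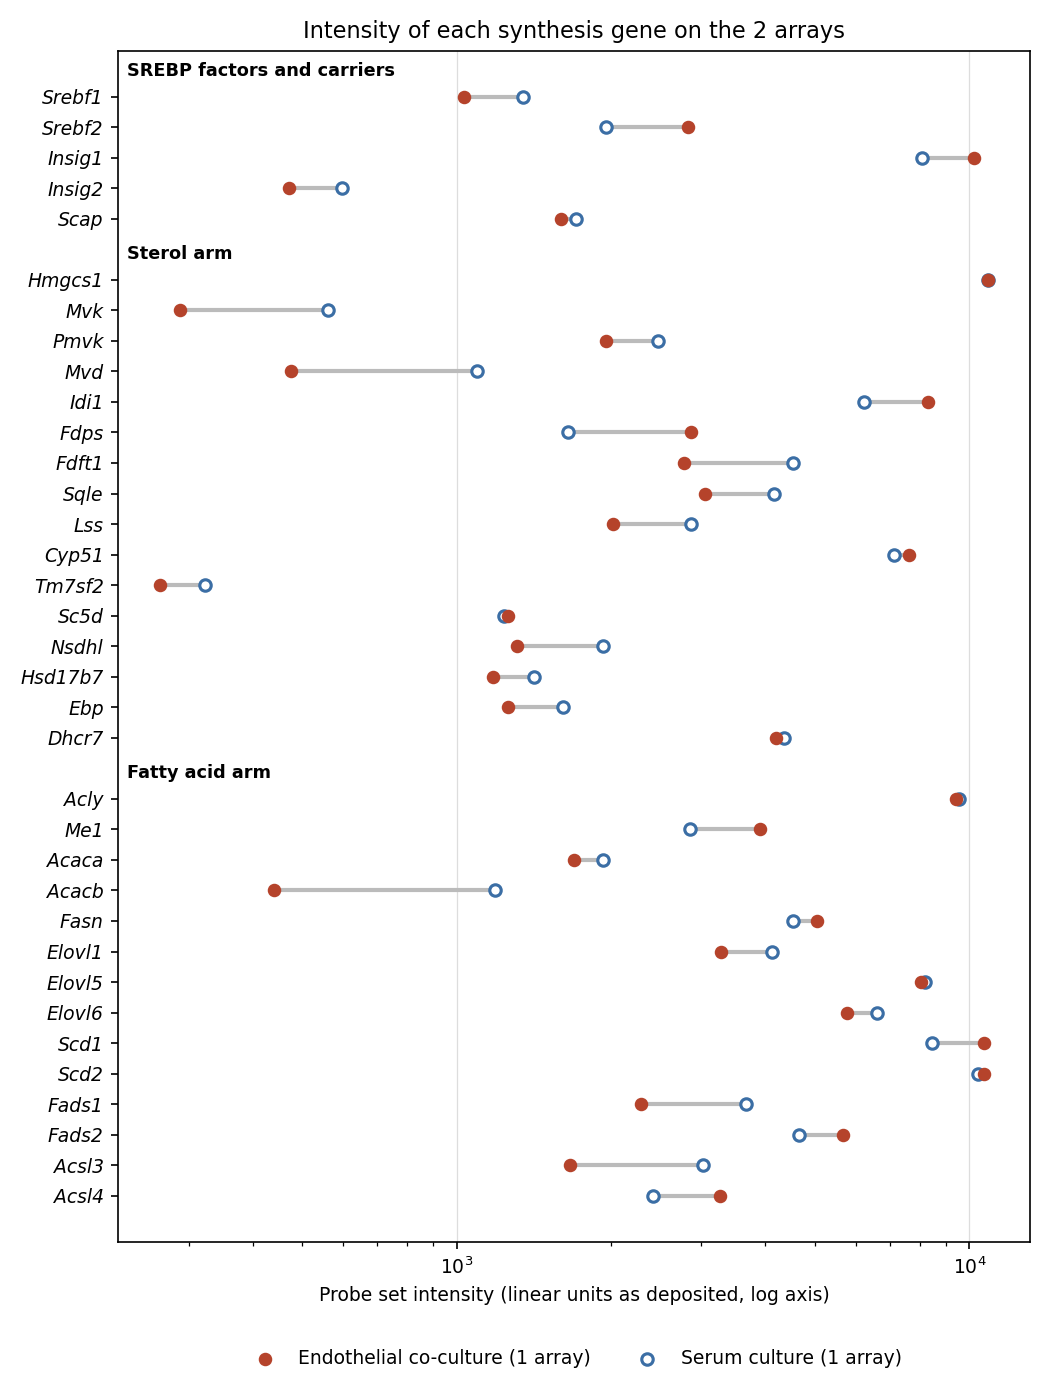
Intensity of each synthesis gene in linear units on a log axis, 1 value per array, with the co-culture array as filled red points and the serum array as open blue points. Rows are grouped by role and follow the order of the pathway. Levels are to be compared only within a row, since probe sets differ in brightness. The longest gaps belong to Acacb (440 in co-culture and 1189 in serum) and Mvd (476 in co-culture and 1094 in serum).

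The median log2 difference of the fatty acid arm was -0.02 over its 14 measured enzymes, of which Acacb was called lower and 0 were called higher. The 2 enzymes that feed it did not reach 2-fold. Acly, which splits citrate to cytosolic acetyl-CoA for both arms, had 9400 in co-culture and 9545 in serum. Me1, the malic enzyme that supplies NADPH, had 3901 in co-culture and 2856 in serum, a log2 difference of 0.45, with 0.64 by its other probe set.

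The acetyl-CoA carboxylases make malonyl-CoA in different places. Acacb, the form at the mitochondrial surface whose product blocks fatty acid entry into mitochondria, had 440 in co-culture and 1189 in serum. It was 2.70-fold lower in co-culture, the largest difference of any member at -1.44 on the log2 scale. Its second probe set was below the floor on both arrays, so 1 probe set carries the value, and the mean over probe sets, with the unmeasured one at 0, was -0.72. Acaca, the cytosolic form that serves palmitate synthesis, had 1696 in co-culture and 1933 in serum, a difference of -0.19. A dim probe set of Acaca (134 in co-culture, below the floor at 36.0 in serum) gave at least 1.60 on the log2 scale in the other direction. Fasn, the synthase that builds palmitate, had 5033 in co-culture and 4525 in serum, a difference of 0.15.

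The elongases lay within 2-fold by their chosen probe sets. Of their 9 measured probe sets 7 were below 0, but 4 of these belong to Elovl1 alone. Elovl1, which extends very long saturated chains, had 3271 in co-culture and 4113 in serum, a log2 difference of -0.33, and all 4 of its probe sets lay below 0. Elovl5, which extends polyunsaturated chains, had 8062 in co-culture and 8185 in serum, a difference of -0.02, with 0.13 by its other probe set. Elovl6, which turns palmitate into stearate, had 5782 in co-culture and 6594 in serum, a difference of -0.19. A dim probe set of Elovl6 (183 in co-culture, below the floor at 23.9 in serum) gave at least 2.05.

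Among the desaturases, the stearoyl-CoA desaturases Scd1 and Scd2, which place the first double bond into saturated chains, lay within 2-fold by their chosen probe sets. Scd1 had 10677 in co-culture and 8472 in serum, a log2 difference of 0.33. Scd2 had 10686 in co-culture and 10403 in serum, a difference of 0.04, whereas its 2 dimmer probe sets gave 0.61 and 1.05 (6593 in co-culture and 3174 in serum for the last). The desaturases of polyunsaturated chains lay on opposite sides of 0. Fads1 had 2286 in co-culture and 3662 in serum, a difference of -0.68, with -0.70 by its other probe set. Fads2 had 5660 in co-culture and 4653 in serum, a difference of 0.28, with 0.19 and -0.13 by its other probe sets.

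Acyl-CoA synthetases activate free fatty acids, and the measured members of this group also lay on opposite sides. Acsl3, which acts at lipid droplets and the endoplasmic reticulum, had 1660 in co-culture and 3028 in serum, 1.82-fold lower. Its 3 probe sets gave log2 differences of -0.87, -0.77 and -0.74, and differed by less than the pooled SD between probe sets. Acsl4, which prefers arachidonate, had 3261 in co-culture and 2410 in serum, a difference of 0.44. Its other probe sets gave 2.02 (203 in co-culture and 49.9 in serum) and -0.20, so neither the direction nor the size is settled for Acsl4.

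Probe sets of 1 gene show a part of the precision of these values. Of the 35 members, 23 had another measured probe set, all measured probe sets lay on 1 side of 0 for 13 of the 23, and 5 of the 23 spanned more than 1 on the log2 scale. Those 5 were Mvk, Acaca, Elovl6, Scd2 and Acsl4. Of the 75 measured probe sets of all members 4 were at least 2-fold higher, those of Acaca, Elovl6, Scd2 and Acsl4 named above, and 3 at least 2-fold lower, both of Mvd and 1 of Acacb. Over all 21156 measured probe sets with 1 symbol 8.16% were higher and 8.06% lower.

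**Figure D3:**
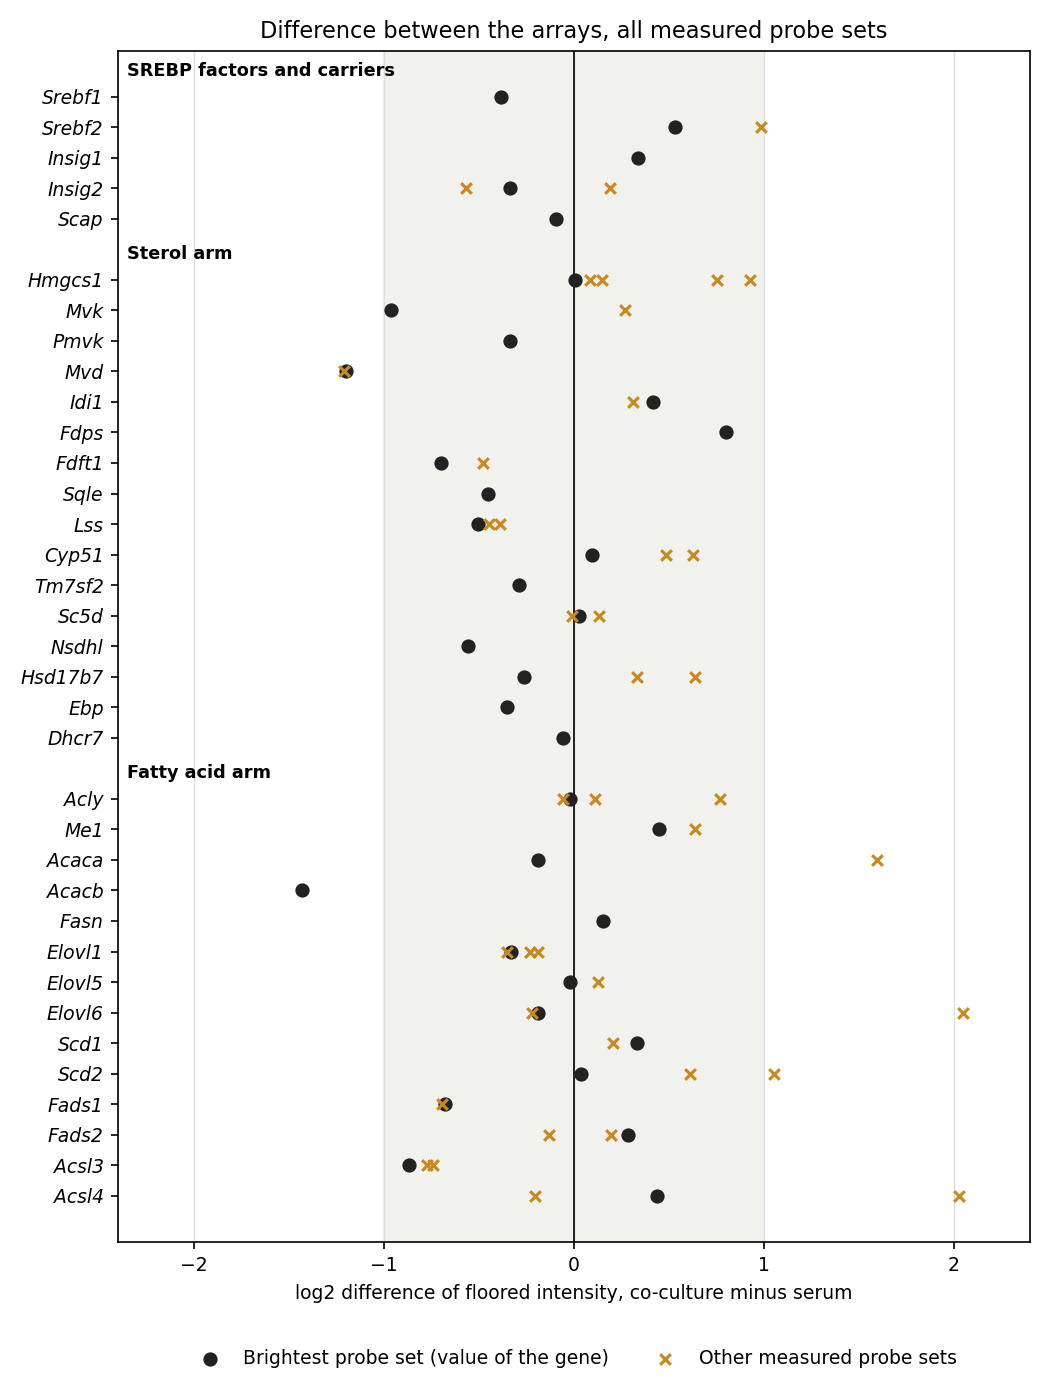
log2 difference of floored intensity, co-culture minus serum, for each synthesis gene. Black points are the chosen probe sets and crosses are the other measured probe sets, with the range within 2-fold shaded. Both probe sets of Mvd lie left of the shaded range at -1.20 and -1.21, and the crosses of Acaca, Elovl6, Scd2 and Acsl4 lie right of it.

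Fatty acid oxidation breaks down what the fatty acid arm makes, and several of its genes were lower in co-culture. Of 12 listed genes 11 had a probe set and 8 were measured, of which 4 were called lower and 0 higher, where 10.1% of all measured genes were called lower and 6.65% of those at 200 or more on both arrays. The median of the 8 was -1.002 on the log2 scale, or -0.63 over all 11 with unmeasured genes at 0, beside -0.06 over all measured genes. Cpt1a, the carnitine transferase that admits fatty acids to mitochondria and is inhibited by the malonyl-CoA that Acacb makes, had 446 in co-culture and 2765 in serum, 6.20-fold lower. All 3 of its probe sets were lower, with log2 differences of -2.63, -2.68 and -2.03. Acadl, the long-chain acyl-CoA dehydrogenase, had 1204 in co-culture and 3193 in serum, 2.65-fold lower, and Acadvl, the very-long-chain one, had 683 and 1442, 2.11-fold lower. Cpt2, which works on the inner mitochondrial membrane, had 477 in co-culture and 960 in serum, 2.01-fold lower, and its second measured probe set gave -0.08. With the mean over probe sets in place of the chosen one, 2 of these genes were called lower, since Acadl was then averaged with a probe set below the floor and Cpt2 with its second one. The other 4 measured genes lay within 2-fold, with Acadm at -0.99 and Hadha at -0.63 on the log2 scale. Hadh was almost level, with 10399 in co-culture and 11274 in serum (-0.12), as was Hadhb, with 5125 and 5234 (-0.03). Each of these 2 had 1 of its 3 measured probe sets above 0. The list was written with earlier results of these arrays known.

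The list of SREBP and LXR control, sterol transport and storage held 17 genes, of which 14 had a probe set and 12 were measured. The LXR genes Nr1h2 and Nr1h3 and the storage gene Soat1 were not among the 12. Of the 12, 3 were called lower and 1 higher, where 10.1% of all measured genes were lower and 4.6% higher. Vldlr, a lipoprotein receptor, had 452 in co-culture and 2048 in serum, 4.53-fold lower, and all 6 of its probe sets lay below 0, between -2.18 and -0.39 on the log2 scale. Mylip, a ubiquitin ligase that marks lipoprotein receptors for degradation, had 140 in co-culture and 292 in serum, 2.09-fold lower. Mlxipl, the glucose-sensing factor ChREBP that drives fatty acid synthesis genes, had 587 in co-culture and 1176 in serum, 2.004-fold lower, just past the limit. Prkaa1, a catalytic subunit of AMP-activated kinase, which phosphorylates the acetyl-CoA carboxylases, had 1011 in co-culture and 425 in serum, 2.38-fold higher by its 1 probe set. Prkaa2, the other catalytic subunit, went the other way, with 301 in co-culture and 383 in serum, a log2 difference of -0.35. A dimmer probe set of Prkaa2, below the floor in co-culture, gave -1.58 or lower. The median of this list was -0.15.

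Among 16 measured genes of the list of other fatty acid and isoprenoid synthesis 1 was called higher and 1 lower, with a median of -0.10. That is 12.5% called in either direction, near the 14.7% of all measured genes. Elovl4, an elongase of very long chains, had 2376 in co-culture and 948 in serum, 2.51-fold higher, with 0.57 on the log2 scale by its other probe set. Thrsp, a nuclear protein tied to lipogenesis in liver, had 215 in co-culture and 539 in serum, 2.51-fold lower, with -0.28 by its other probe set. Genes listed as markers of fat cells stand beside these lipid genes: Adipoq had 108 in co-culture and 3.49 in serum, and Fabp4 had 151 and 20.9, both below the floor in serum. Another probe set of Fabp4 had 129 in co-culture and 35.7 in serum, and its remaining ones were below the floor on both arrays. The summed intensity of the 5 fat cell markers with a probe set was 331 in co-culture and 81.7 in serum, with Pparg, Cidec and Lipe below the floor on both arrays. Their part in the differences was not tested.

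**Figure D4:**
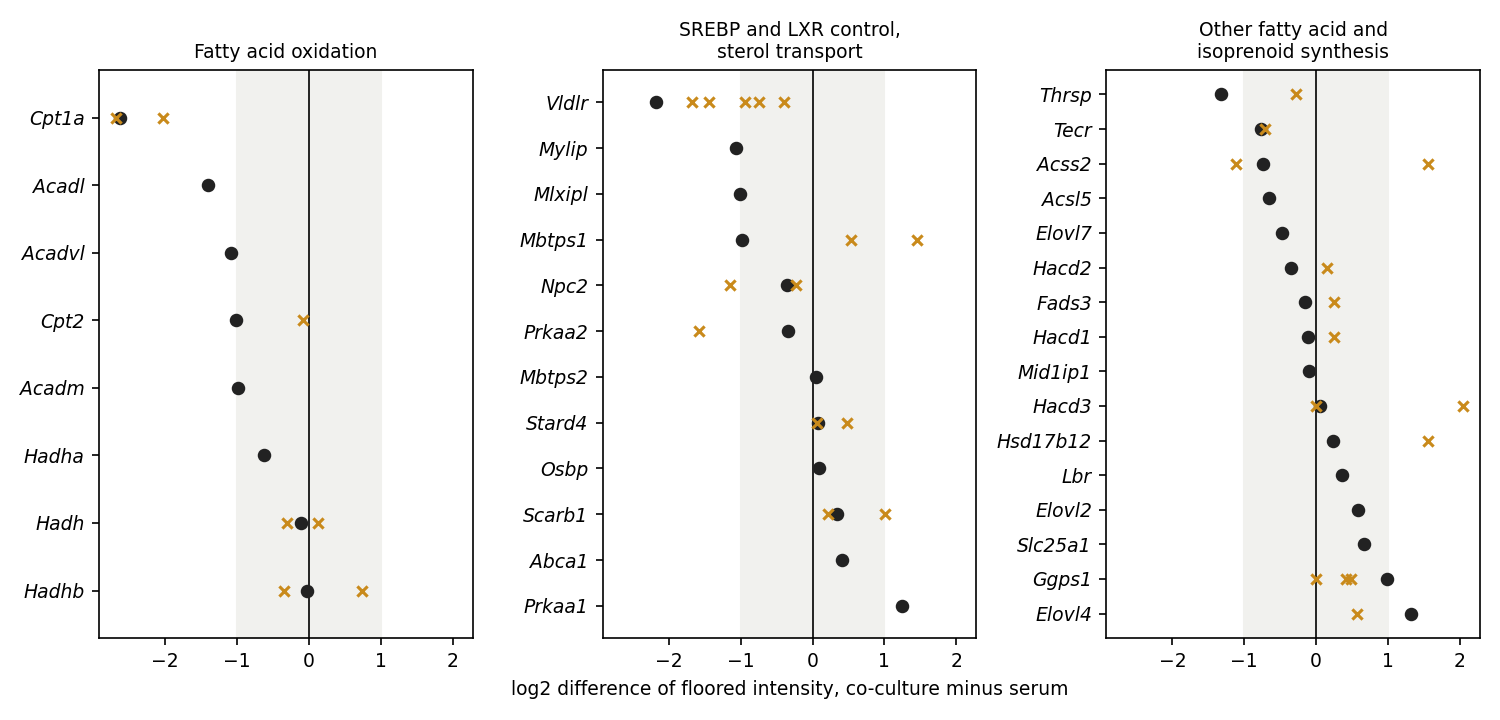
log2 difference of floored intensity, co-culture minus serum, for the measured genes of 3 further lists, 1 panel each. Black points are the chosen probe sets, crosses the other measured probe sets, and the range within 2-fold is shaded. In the panel of fatty acid oxidation all 8 black points lie below 0, those of Hadh (-0.12) and Hadhb (-0.03) close to it. All 3 probe sets of Cpt1a lie at -2.03 or lower, and in the middle panel all 6 probe sets of Vldlr lie below 0.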

How the data were processed

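RNA from 2 samples of mouse cells, 1 per condition, was hybridised to 1-colour arrays after copying into biotin-labelled cRNA, per the labels' protocols. The values are the linear intensity of each of 45101 probe sets as the authors deposited them. The labels name no array software or normalization, and the equal trimmed mean of both arrays (2% at each end) is what global scaling would leave.

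Probe sets were named from the platform annotation, with symbols updated by gene number through RefSeq GRCm38.p6 (34741 of 34945 probe sets of 1 symbol). Control probe sets and 932 probe sets of several symbols named no gene. Differences were taken as log2 of intensities floored at 44.3. There are no replicates, so no test was run. All members are named. From each further list, up to 4 members past 2-fold were named, and Prkaa2 was named beside Prkaa1. Also named were the other measured genes of fatty acid oxidation, and Nr1h2, Nr1h3 and Soat1, which were not measured. The members and lists were chosen with earlier results of these data known. The 11 alternatives were other floors (percentiles 25 and 75, an intensity of 200), a pseudocount of 16, subtraction of the median difference, quantile normalization, scaling to the hybridisation spikes, other rules for the probe set of a gene, and no filter on dim genes. Steps were tested on simulated data. Python 3.11.15, pandas and numpy were used. The number of arrays limits the precision.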

Additional observations from a re-analysis of the deposited data

How the results depend on the processing

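With 1 array per condition the spread between cultures is unknown, and signal over background limits dim probe sets. Mvd stayed at least 2-fold lower in all 11 alternatives (-1.39 to -1.14 on the log2 scale), and Acacb in 10 of 11 (-1.63 to -0.72). Since all members lay above 200 on both arrays, 3 of these alternatives (the floors at percentile 25 and at 200, and no filter) could not move a member's value, and the shifts of all genes alike moved each by less than 0.2. The floor at percentile 75 and the choice of probe set by highest mean log2 also left Mvd at -1.20 and Acacb at -1.44. Removal of shared-sequence probe sets left Acacb at -1.44 too. The counts of alternatives for Mvd and Acacb are thus not counts of separate support. Under the mean over probe sets, the floor at percentile 75 or the removal of shared-sequence probe sets, 8 values of members moved by more than the SD of 0.41 between probe sets. The median of the sterol arm ranged from -0.51 to -0.26, that of the fatty acid arm from -0.21 to 0.14, that of the regulators from -0.29 to 0.12 and that of fatty acid oxidation from -1.19 to -0.63.

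Scaling to the spikes moved every difference above the floor down by 0.19 and the median of all measured genes to -0.26. It gave 2 lower genes in the sterol arm, with Mvk at -1.16, and 2 in the fatty acid arm, with Acsl3 at -1.06. The mean over probe sets gave 0 lower genes in the fatty acid arm, 2 lower in fatty acid oxidation, 0 higher and 0 lower in other fatty acid and isoprenoid synthesis, and 653 lower among all genes. This mean takes in probe sets below the floor on both arrays as 0, which is how Acacb (-0.72) and Acadl (-0.70) came within 2-fold. Over all measured genes the balance was 531 higher and 1162 lower (31.4% higher), against 332 and 1589 with the spikes (17.3%), 2053 and 1619 with the floor at percentile 25 (55.9%) and 881 and 1227 with the pseudocount (41.8%). Fewer dim genes entered with the floor at percentile 75 (143 higher, 399 lower) and at 200 (221 higher, 662 lower). In other fatty acid and isoprenoid synthesis 2 genes were higher with the floor at percentile 25, with the median subtracted and with quantile normalization, 0 were lower with the floor at percentile 75, and 2 were lower without probe sets of shared sequence. In SREBP and LXR control 2 were higher with the floor at percentile 25 and 2 higher and 1 lower with the pseudocount. The causes of the other changes were not tested. Among single members, Hsd17b7 changed sides to 0.64 without probe sets of shared sequence, and Acaca (0.70) and Elovl6 (0.55) with the mean over probe sets. Hmgcs1, Cyp51, Sc5d, Dhcr7, Acly, Elovl5, Fasn and Scd2 also changed sides in some alternatives. Of the further genes, Mlxipl stayed past 2-fold in 7 of 10 alternatives that gave a value, Cpt2 in 7 of 11, Mylip in 8 of 11 and Thrsp in 9 of 11. No paired analysis was possible because each condition had 1 array.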
